A study of Mus musculus with 12 samples.

Results

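The CD8 and CD4 coreceptor chains are the 3 genes Cd8a, Cd8b1 and Cd4, found by their symbols in the platform's annotation. They are 3 of the 8251 genes with a probe set of their own, and each has 1 probe set, of 12422 that are not controls. All 3 passed the filter on low values, and the suffix of the Cd8b1 probe set marks one that can read more than 1 transcript. The genes were picked knowing that Cd8b1 separates HY_high from HY_low and from OT1. Levels in those 2 comparisons are therefore given as a description with no test, while HY_low against OT1 was tested.

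The arrays hold RNA from day 6 of RTOC, reaggregate cultures of thymocytes with thymic stroma. The sample descriptions name thymocytes for OT1 only. HY_high holds 4 arrays of RTOC with the HY T cell receptor (TCR) and Smcy peptide at 1e-05 M. HY_low holds 4 arrays of RTOC with the same receptor and that peptide at 1e-07 M. OT1 holds 4 arrays of thymocytes with the OT1 receptor, for which no peptide is named. HY recognises a male antigen peptide encoded by Smcy, and OT1 an ovalbumin peptide, both on MHC class I. Titles number the arrays 1 to 4 within each group and add unexplained letters, aa at the high and ab at the low dose, so that dose and whatever the letters mark cannot be told apart. Between HY and OT1, receptor and peptide differ together. Strain, sex, age and any sorting of the cells are not given in the labels, nor is it stated that replicates came from separate cultures, so that the p-values cover the spread between these arrays and no more.

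Coreceptors bind the same MHC molecule as the TCR and bring the kinase Lck, held by the tails of CD4 and CD8 alpha, to the receptor. CD4 binds MHC class II and acts alone. CD8 binds class I either as an alpha-beta heterodimer or as an alpha-alpha homodimer. The heterodimer is the usual form on thymocytes and conventional CD8 T cells, and the homodimer is known from intestinal intraepithelial lymphocytes and other agonist-selected cells. Immature thymocytes carry CD4 and CD8 together, and class I restricted cells keep CD8 and lose CD4 as they mature.

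Values are deposited intensities in arbitrary units on a linear scale whose lowest value is 1. Array medians lay between 3.33 and 3.97, and 15.3% of all values were at 1. Intensities of different probe sets are not comparable with each other, so a level is set only against the same probe set on other arrays, and a sum over several probe sets only against the same sum. The number of arrays limits the precision. Same-numbered arrays were alike across groups, and differences are given within numbers too. Arrays numbered 1 had 8.50% to 8.80% of their values at 1 and those numbered 3 had 21.3% to 22.5%, while array 2 had 3.0% in HY_high and 19.0% in OT1.

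Of the 3 genes, the promoter table credited to RefSeq (build GRCm38.p6) holds Cd8a, the chain common to both forms of CD8. Its 250 bases before the gene start, chr6:71373177-71373426 on the plus strand, are shown because Cd8a and Cd8b1 lie next to each other on chromosome 6, with no coding gene between them, and were both lower in HY_high. Capitals mark matches to the E-box motif CANNTG, the site of E proteins such as Tcf3 and Tcf12, searched on both strands.

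Cd8a promoter: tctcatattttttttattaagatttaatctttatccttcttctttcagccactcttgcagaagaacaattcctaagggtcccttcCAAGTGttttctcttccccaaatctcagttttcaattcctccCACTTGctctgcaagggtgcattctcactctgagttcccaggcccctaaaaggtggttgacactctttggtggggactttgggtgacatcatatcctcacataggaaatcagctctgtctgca

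The 2 E-boxes start at positions -165 and -123 from the gene start, and 66.2% of 32851 promoter windows of this length hold at least 1. For 3 other families 1 spelling each was searched on both strands, TGTGGT for Runx, AGATAA for Gata and GGAAGT for Ets. These spellings have 0 matches in this window and occur in 14.1%, 9.99% and 19.7% of the windows. Shorter or other spellings were not searched, so the 0 matches do not show that the window lacks Runx, Gata or Ets sites. A match describes these letters and no binding was measured.

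Cd8b1, the beta chain that makes CD8 a heterodimer, was at 1 to 8.26 in HY_high and at 172 or above on every other array. Its intensity was 8.18, 1, 6.18 and 8.26 on HY_high arrays 1 to 4, against 172, 698, 1042 and 1374 on HY_low arrays 1 to 4 and 219, 835, 1032 and 1219 on OT1 arrays 1 to 4. The highest HY_high array lay far below the lowest HY_low array, and neither of the other groups overlapped with HY_high. Fewer cells with the transcript and less of it per cell cannot be told apart in these bulk samples.

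The geometric mean of Cd8b1 was 4.52 in HY_high and 644 in HY_low, a log2 difference of -7.15 ± 0.75 (SE, n = 4 per group), or 143-fold lower. Against OT1, with a geometric mean of 693, the difference was -7.26 ± 0.75, or 153-fold lower. These comparisons share the HY_high arrays. No tested probe set had a more negative difference than Cd8b1 in either, which describes how the gene came to be chosen. Within numbers 1 to 4 the difference from HY_low was -4.40, -9.45, -7.40 and -7.38, and from OT1 it was -4.74, -9.71, -7.38 and -7.21. Number 1 had the smallest difference, since its HY_low and OT1 arrays were the lowest of their groups, and number 2 the largest, since its HY_high array sat at the lowest value of the scale. The size therefore depends on how the low end is treated. With values under 8 set to 8 the log2 differences were -6.31 from HY_low and -6.42 from OT1, and with a pseudocount of 16 they were -4.94 and -5.04.

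**Figure D1:**
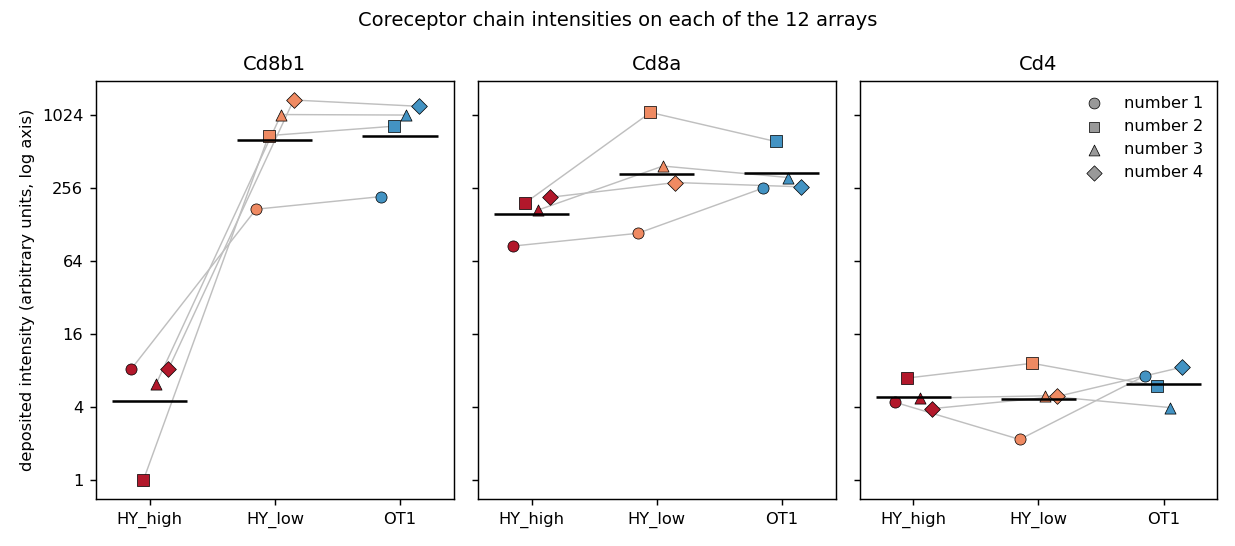
Deposited intensity of Cd8b1, Cd8a and Cd4 (log axis, arbitrary units) on the 12 arrays by group, with symbols for the title number, grey lines joining arrays of 1 number and black bars for geometric means. Cd8b1 spans 1 to 8.26 in HY_high and lies at 172 or above in HY_low and OT1, Cd8a shifts less, and Cd4 stays between 2.16 and 9.19 on all arrays.

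Cd8a, the alpha chain found in both forms of CD8, differed far less between the groups. It was at 85.4, 194, 169 and 216 on HY_high arrays 1 to 4, against 109, 1084, 391 and 286 on HY_low arrays 1 to 4 and 257, 625, 315 and 264 on OT1 arrays 1 to 4. HY_high overlapped with HY_low through HY_low array 1, and lay below every OT1 array.

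The geometric mean of Cd8a was 157 in HY_high, against 339 in HY_low and 340 in OT1. The log2 differences were -1.11 ± 0.58 from HY_low and -1.11 ± 0.58 from OT1 (SE, n = 4 per group), about 2.16-fold and 2.17-fold lower. Within numbers 1 to 4 they were -0.35, -2.48, -1.21 and -0.40 from HY_low, and -1.59, -1.69, -0.90 and -0.29 from OT1. Of the 8695 tested probe sets, 1.22% had a more negative difference from HY_low and 1.46% a more negative one from OT1. HY_low array 2, at 1084, carries much of the first difference, which was -0.55 without that array.

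**Figure D2:**
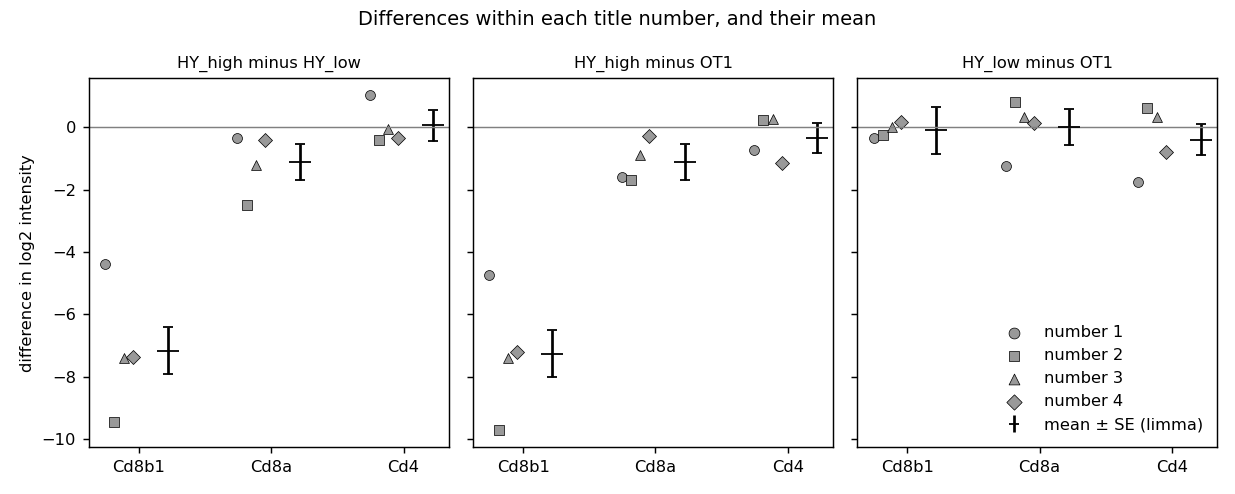
Differences in log2 intensity for Cd8b1, Cd8a and Cd4 within title numbers 1 to 4 (grey symbols) and their mean with its limma SE (black), for the 3 comparisons. Both CD8 chains lie below 0 within all 4 numbers in the HY_high comparisons, Cd8b1 at -4.40 or lower, and all 3 genes scatter around 0 in HY_low against OT1.

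The log2 difference of Cd8b1 minus that of Cd8a was -6.04 ± 1.38 in HY_high against HY_low (SD over 4 numbers, from -6.97 to -4.05) and -6.15 ± 2.10 in HY_high against OT1 (-8.02 to -3.15). Because Cd8b1 was near the lowest value in HY_high, the size depends on the low end here too. It was -5.20 and -5.30 with values under 8 set to 8, and -3.89 and -4.00 with a pseudocount of 16. These are descriptions, since the HY_high values of Cd8b1 led to the choice of the genes. In HY_low against OT1 the same quantity was -0.10 ± 0.81, with values on both sides of 0 (-1.05 to 0.89).

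Cd4 was low on every array, on a scale whose lowest value is 1. It was at 4.39, 6.94, 4.73 and 3.88 on HY_high arrays 1 to 4, against 2.16, 9.19, 4.95 and 4.89 on HY_low arrays 1 to 4 and 7.25, 5.96, 3.96 and 8.55 on OT1 arrays 1 to 4. All 3 groups overlapped. Its geometric means were 4.86 in HY_high, 4.68 in HY_low and 6.18 in OT1. The log2 difference was 0.055 ± 0.49 from HY_low and -0.35 ± 0.49 from OT1, with both signs among the numbers in each comparison. No detection calls were used here, so a low intensity on 1 probe set does not show that the transcript is absent.

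Counted over the 3 genes, 1 had HY_high wholly below HY_low, namely Cd8b1, where 0.782% of tested probe sets did. In HY_high against OT1 it was 2 genes, Cd8b1 and Cd8a, where 1.01% of probe sets did. Both chains were lower within all 4 numbers in each comparison, as were 9.76% and 8.74% of probe sets. Nothing is read from these counts, since the genes were chosen with these comparisons known.

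HY_low against OT1 asks how the coreceptors stood between cells with different receptors when the peptide dose was the lower one. None of the 3 genes passed an adjusted p of 0.05 in limma, which 0.0230% of tested probe sets did, and 0 of the 3 had an unadjusted p under 0.05, which 2.65% did. The log2 difference of Cd8b1 was -0.10 ± 0.75 (95% interval -1.69 to 1.48, limma adjusted p = 1.0, n = 4 per group), and it was lower within 2 of 4 numbers. For Cd8a it was -0.0031 ± 0.58 (-1.22 to 1.21, limma adjusted p = 1.0), lower within 1 of 4 numbers, and for Cd4 -0.40 ± 0.49 (-1.43 to 0.63, limma adjusted p = 1.0), lower within 2 of 4. These intervals hold differences of more than 2-fold in either direction for both CD8 chains. With the replicate number as a block they were narrower, -0.65 to 0.64 for Cd8a, -1.24 to 1.03 for Cd8b1 and -1.31 to 0.51 for Cd4. The block fit pools the spread over all 3 groups, and the pairing was read from these same data. The Cd8a interval is therefore not taken to leave out a 2-fold difference. Cd8b1 nevertheless kept close to its number, with differences of -0.35, -0.26, 0.014 and 0.17 within numbers 1 to 4 (SD 0.24), where its intensity varied 5.57-fold among OT1 arrays and 7.98-fold among HY_low arrays. In OT1 and in HY_low alike number 1 was lowest and number 4 highest. Cd8a kept less closely to its number, with -1.24 within number 1 and 0.80 within number 2 (SD 0.87). The log2 ratio of 3' to 5' signal of the Gapdh control separated numbers 2 and 4 but not 1 and 3. It was 5.60 to 6.26 on arrays numbered 2 and 2.95 to 3.27 on those numbered 4. Arrays numbered 1 and 3 overlapped, at 4.568 to 4.873 and 4.685 to 5.482. The same ratio of the Actb control overlapped between numbers 2 and 4, at 2.017 to 2.99 and 2.147 to 2.535. The part of these ratios in the patterns of Cd8b1 and Cd8a was not tested.

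The coding genes next to the members served to see how far along the chromosome the differences reached. They were chosen by position after the members' values were seen. Of the 10 nearest to the Cd8 pair, 5 on each side, 7 have a probe set and 6 probe sets were tested. By limma 0 of the 6 passed in any comparison, with or without the number as a block, and 0 had an unadjusted p under 0.05. Over all tested probe sets 2.96%, 4.08% and 2.65% reached that p in HY_high against HY_low, HY_high against OT1 and HY_low against OT1. On the Cd8b1 side the only tested probe set was one of Smyd1, with geometric means of 1.94 in HY_high, 2.56 in HY_low and 2.21 in OT1. These lie near the lowest value of the scale, so a fall could hardly show on that side. Rmnd5a, a subunit of a ubiquitin ligase and the gene next to Cd8a, was at 129, 160, 191 and 139 on HY_high arrays 1 to 4, against 132, 161, 246 and 132 on HY_low arrays 1 to 4 (log2 difference -0.082 ± 0.36). The differences of the 6 from HY_low ran from -0.52 to 0.80.

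Around Cd4, 9 of the 10 nearest genes have a probe set and 10 probe sets were tested. Lag3, which adjoins Cd4 and encodes a related inhibitory receptor for class II, was at 15.04, 7.29, 8.98 and 4.55 on HY_high arrays 1 to 4, against 2.41, 1.03, 2.24 and 3.19 on OT1 arrays 1 to 4. The log2 difference was 1.995 ± 0.511 (limma adjusted p = 0.271, or 0.0489 with the replicate number as a block, where 1.36% of probe sets passed). On HY_low arrays Lag3 was at 5.80, 8.44, 3.37 and 4.01, a log2 difference of 1.31 ± 0.51 from OT1 (limma adjusted p = 1.0, or 0.425 with the block). All of these levels are near the lowest value of the scale. No other neighbour of Cd4 passed in any comparison with limma, with or without the block. Usp5 lay wholly lower in HY_high than in OT1, as did 1.01% of tested probe sets, with geometric means of 6.84 and 15.5. Its log2 difference was -1.18 ± 0.48 (limma unadjusted p = 0.026, where 4.08% of tested probe sets were under 0.05).

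**Figure D3:**
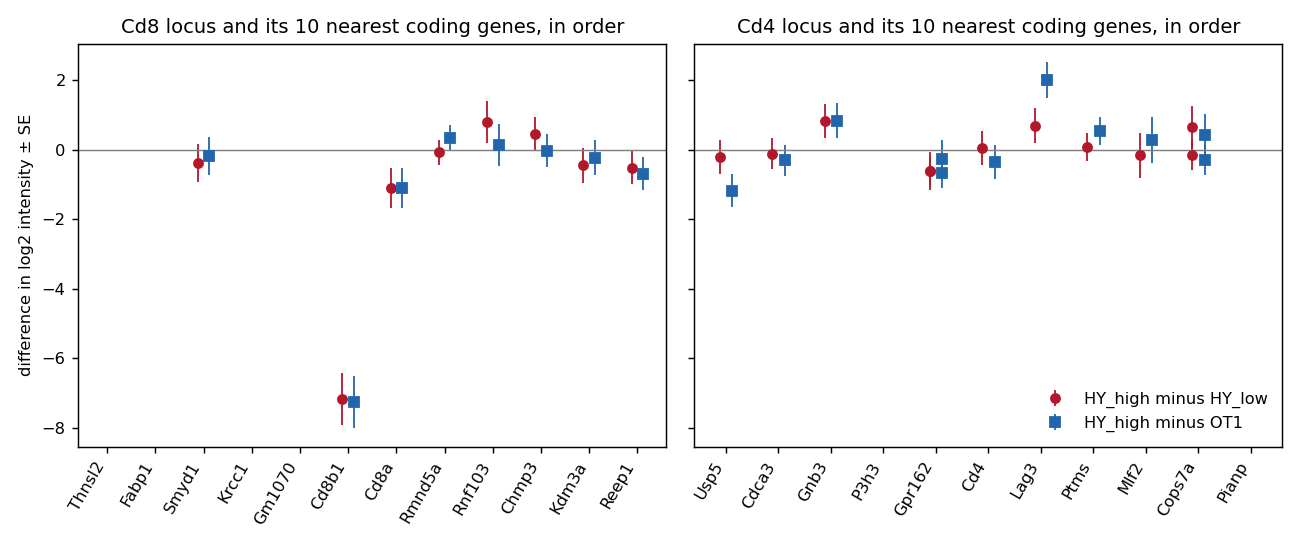
Differences in log2 intensity (± limma SE) of Cd8b1, Cd8a, Cd4 and their nearest coding genes in chromosome order, for HY_high minus HY_low and HY_high minus OT1. Cd8b1 stands at -7.15 and -7.26, Cd8a at -1.11 in both, and the tested neighbours of the Cd8 pair between -0.70 and 0.80. Genes without a point had no tested probe set.

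Regulators of the coreceptor genes were taken as a list of 24, of which 19 have a probe set with a single symbol and 18 were tested. Runx3, Bcl11b, Tox, Patz1 and Tcf7 have none. By limma 0 of the 18 passed in any comparison, where 0.0230% passed in HY_high against HY_low and 0.173% in HY_high against OT1. At an unadjusted p under 0.05 there were 2 in HY_high against HY_low, 1 in HY_high against OT1 and 2 in HY_low against OT1. Over all tested probe sets 2.96%, 4.08% and 2.65% reached that p in the same order of comparisons. The median log2 difference was 0.12, 0.23 and 0.16 in these comparisons, beside 0.014, 0.017 and 0.012 over all tested probe sets.

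Satb1, a chromatin organiser that acts on enhancers of both coreceptor loci, fell in HY_high against OT1 only with the replicate number as a block. It was at 5.30, 21.2, 133 and 78.2 on HY_high arrays 1 to 4, against 7.42, 85.9, 296 and 151 on OT1 arrays 1 to 4. The groups overlapped because the numbers differ widely, but HY_high was the lower within 4 of 4 numbers (log2 difference -1.15 ± 1.10, limma adjusted p = 1.0, or 0.0470 with the block, which 1.36% of probe sets passed). HY_low arrays 1 to 4 had 16.5, 60.1, 213 and 160, and the difference of HY_high from HY_low was -1.21 (block adjusted p = 0.0726).

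A few regulators are named after their values were seen. Tcf3, an E protein, had a geometric mean of 2.58 in HY_high, 8.23 in HY_low and 7.00 in OT1 (limma adjusted p = 1.0 in each comparison). Its intensities, from 1.07 to 14.83 over the arrays, lie near the lowest value of the scale. Tcf12, the other E protein named above, had geometric means of 81.0 in HY_high, 57.7 in HY_low and 63.1 in OT1. Its log2 differences in HY_high, 0.49 from HY_low and 0.36 from OT1, were smaller than their SE of 0.74. Il7r, the interleukin-7 receptor chain whose signals favour Cd8 expression, had geometric means of 75.2 in HY_high, 25.8 in HY_low and 79.4 in OT1. Its log2 difference was 1.54 ± 0.69 between HY_high and HY_low and -1.62 ± 0.69 between HY_low and OT1 (limma adjusted p = 1.0 for both). Cbfb, the partner of Runx factors, had geometric means of 1715 in HY_high, 1305 in HY_low and 1186 in OT1. Zbtb7b, the factor that fixes the CD4 lineage, had intensities of at most 3.97 and was not tested.

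Partners in coreceptor signalling were a list of 17, of which 15 were tested. Lck has no probe set with a single symbol. By limma 0 of the 15 passed in any comparison, and at an unadjusted p under 0.05 there were 0, 1 and 0 in HY_high against HY_low, HY_high against OT1 and HY_low against OT1 (2.96%, 4.08% and 2.65% of all probe sets). Ptpn22, a phosphatase that restrains Lck and other TCR kinases, rose in HY_high against OT1 with the block alone. It was at 96.4, 150, 191 and 194 on HY_high arrays 1 to 4, against 63.2, 66.7, 105 and 102 on OT1 arrays 1 to 4 (log2 difference 0.89 ± 0.38, limma adjusted p = 1.0, or 0.0351 with the block, which 1.36% of probe sets passed). The groups overlapped through HY_high array 1. A further probe set for Ptpn22 differed by 0.42. The kinase Zap70 had geometric means of 555 in HY_high, 705 in HY_low and 564 in OT1. The CD3 chain Cd3g had 231 in HY_high, 273 in HY_low and 184 in OT1. The lowest difference of the list in HY_high against HY_low was that of Cd6, at -1.20 ± 0.65. From OT1 Cd6 differed by -0.88 ± 0.65. A further Cd6 probe set had -1.04 and -1.33. With the block the limma adjusted p of Cd6 was 0.174 and 0.299.

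MHC class I, the ligand of CD8, was a list of 9 genes with those of peptide loading, of which 8 were tested. By the brightest probe set, all 8 had a log2 difference above 0 in HY_high against OT1 (median 0.71) and in HY_low against OT1 (median 0.54). These comparisons share the OT1 arrays, and the medians over all tested probe sets were 0.017 and 0.012. A further Tap1 probe set had -1.04 and -0.93, and 1 of Tapbp had -0.03 in HY_high against OT1. The other further probe sets of the list were above 0 in both. By limma 0 of the 8 genes passed in any comparison, and 0, 1 and 0 had an unadjusted p under 0.05 (2.96%, 4.08% and 2.65% of all probe sets). H2-D1, a classical class I heavy chain, rose in HY_high against OT1 with the block. It was at 1309, 780, 959 and 784 on HY_high arrays 1 to 4, against 577, 339, 307 and 251 on OT1 arrays 1 to 4. The log2 difference was 1.42 ± 0.43 (limma adjusted p = 0.490, or 0.00209 with the block, which 1.36% of probe sets passed). Further H2-D1 probe sets differed by 0.74 and 3.85. On HY_low arrays 1 to 4 H2-D1 was at 1028, 335, 792 and 578, a log2 difference of 0.85 ± 0.43 from OT1. The adjusted p was 0.202 in limma with the block. In HY_low against OT1 the further H2-D1 probe sets had 0.25 and 2.93. Probe sets of class I genes can read several family members. In HY_high against HY_low the list's median was 0.33.

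MHC class II, the ligand of CD4, was a list of 8 genes, of which 6 were tested. By limma 0 passed in any comparison, and 0, 0 and 1 had an unadjusted p under 0.05 (2.96%, 4.08% and 2.65% of all probe sets). H2-Aa, H2-Ea, H2-DMb1 and Ciita were below 8 on all 12 arrays. The smallest unadjusted p belonged to H2-Ea, with geometric means of 1.97 in HY_high, 2.92 in HY_low and 1.15 in OT1. H2-Ab1 had 3.11 in HY_high, 3.10 in HY_low and 1.48 in OT1. Cd74, the invariant chain, had 6.33 in HY_high, 3.16 in HY_low and 6.58 in OT1, and H2-DMa had 25.9 in HY_high, 38.4 in HY_low and 41.9 in OT1.

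**Figure D4:**
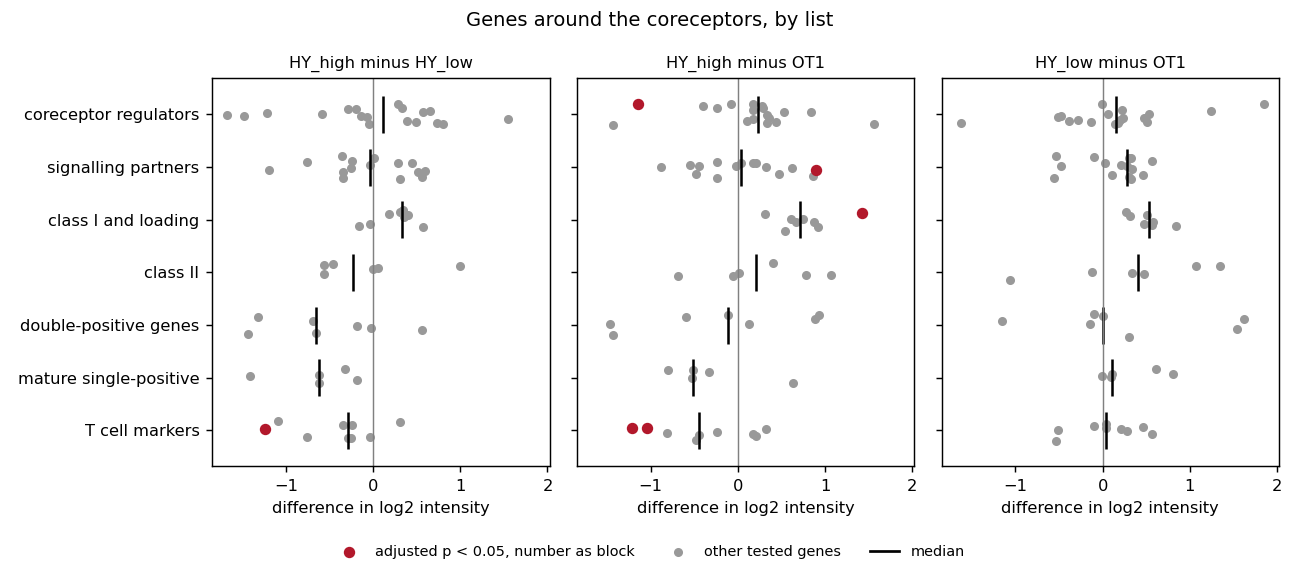
Differences in log2 intensity of the tested genes of 7 lists (1 point per gene, black bar the median) in the 3 comparisons. Red points passed limma with the replicate number as a block, namely Satb1, Ptpn22, H2-D1, Thy1 and Cd2 in HY_high minus OT1 and Thy1 in HY_high minus HY_low.

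Markers of T cells other than the coreceptors were tested for 9 of 10 genes, to see whether the CD8 chains stood alone. By limma 0 passed in any comparison, and 1, 1 and 0 had an unadjusted p under 0.05 (2.96%, 4.08% and 2.65% of all probe sets). With the block 1 fell in HY_high against HY_low, where 0.345% of probe sets passed, and 2 fell in HY_high against OT1, where 1.36% passed. None did in HY_low against OT1, where 0.0920% passed. Thy1, a surface glycoprotein of thymocytes, was at 382, 163, 306 and 158 on HY_high arrays 1 to 4, against 709, 301, 700 and 634 on HY_low arrays 1 to 4 and 772, 407, 544 and 502 on OT1 arrays 1 to 4. Its log2 difference was -1.24 ± 0.43 from HY_low (limma adjusted p = 1.0, or 0.0126 with the block) and -1.21 ± 0.43 from OT1 (limma adjusted p = 0.788, or 0.00564 with the block).

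Cd2, an adhesion receptor, was at 268, 49.8, 84.6 and 73.5 on HY_high arrays 1 to 4, against 279, 99.3, 231 and 236 on OT1 arrays 1 to 4. It was lower within 4 of 4 numbers (log2 difference -1.05 ± 0.55, limma adjusted p = 1.0, or 0.0402 with the block). Cd3e, a CD3 chain, had geometric means of 48.0 in HY_high, 57.2 in HY_low and 41.5 in OT1. The difference of Cd8a lies among those of Thy1 and Cd2, and that of Cd8b1 lies far outside the range of the 9 markers, -1.24 to 0.31 in HY_high against HY_low. The summed intensity of the 9 markers was 574 to 1201 in HY_high, 834 to 2060 in HY_low and 784 to 1674 in OT1.

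Genes of double-positive thymocytes other than the coreceptors were tested for 7 of 11, with a median log2 difference of -0.65 in HY_high against HY_low and -0.12 in HY_high against OT1. By limma 0 passed in any comparison, with or without the block, and 2 had an unadjusted p under 0.05 in each (2.96%, 4.08% and 2.65% of all probe sets). Rag1, which cuts DNA in receptor gene rearrangement, had geometric means of 2.58 in HY_high, 7.00 in HY_low and 6.98 in OT1, and the polymerase Dntt had 3.67 in HY_high, 9.13 in HY_low and 10.1 in OT1. Neither of these probe sets exceeded 15.2 on any array. The log2 difference of Rag1 in HY_high was -1.44 from HY_low and -1.44 from OT1, while a further Rag1 probe set had -0.03 and -0.63. The further Dntt probe sets also differed less than the one shown, and were below 0 in both HY_high comparisons. Cd24a, a surface marker of immature thymocytes, had 14.99 in HY_high, 23.6 in HY_low and 8.11 in OT1, and did not follow the order of Cd8b1. Of the mature single-positive genes 5 of 8 were tested, 0 passed by limma with or without the block, and 1, 0 and 0 had an unadjusted p under 0.05 (2.96%, 4.08% and 2.65% of all probe sets). All 5 had a log2 difference below 0 in HY_high against HY_low (median -0.62), and 4 of 5 in HY_high against OT1 (median -0.52). Among them Ccr7, a homing receptor, had geometric means of 5.65 in HY_high, 14.996 in HY_low and 9.81 in OT1.

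Other cells could add Cd8a or Cd4 RNA, since some dendritic cells carry either and some macrophages carry Cd4. Of 7 dendritic cell markers with a probe set, Itgax, Xcr1 and Zbtb46 were below 8 on all 12 arrays. The summed intensity of the 7 was 51.0 to 96.3 in HY_high, 31.1 to 71.8 in HY_low and 33.8 to 67.7 in OT1. Batf3, a factor of dendritic cells and of activated T cells, was at 31.2, 26.3, 5.55 and 12.9 on HY_high arrays 1 to 4, against 2.19, 6.63, 2.75 and 5.46 on OT1 arrays 1 to 4 (log2 difference 2.02 ± 0.62, limma adjusted p = 0.516, or 0.0525 with the block). Of the 6 tested dendritic cell markers 4 had a log2 difference above 0 in HY_high against OT1, while Itgax had -0.41 and Ly75 -0.44. The 8 macrophage markers summed to 18.6 to 24.5 in HY_high, 20.3 to 48.3 in HY_low and 12.3 to 19.3 in OT1, with Adgre1, Cd68, Mpeg1 and C1qa below 8 on all arrays. Apoe and Lyz2 had geometric means of 1.4 and 1.97 in HY_high, 5.61 and 4.57 in HY_low, and 1.27 and 1.16 in OT1. In HY_high against HY_low 3 of the 7 tested macrophage markers had a log2 difference below 0 and 4 above, from 0.11 for Cd68 to 0.78 for C1qb, and a further probe set for Apoe had 0.35.

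The sums were 32.7 to 189 in HY_high, 22.3 to 44.99 in HY_low and 21.5 to 61.7 in OT1 for 5 B cell markers, and Blk alone, a B lineage kinase, was at 153 on HY_high array 3. For 3 NK cell markers they were 5.73 to 10.1 in HY_high, 5.21 to 8.55 in HY_low and 8.05 to 15.8 in OT1, with Ncr1 and Gzma below 8 on all arrays. Of the 2 tested, Eomes had geometric means of 2.68 in HY_high, 1.83 in HY_low and 5.71 in OT1, and Gzma 3.71, 3.62 and 3.04. Of 7 thymic epithelium markers 6 were below 8 on all arrays, and the sum was 9.65 to 27.3 in HY_high, 9.53 to 20.02 in HY_low and 8.92 to 15.3 in OT1. Fibroblast markers summed to 38.2 to 65.1 in HY_high, 43.6 to 79.3 in HY_low and 43.3 to 67.7 in OT1. Of the 6 tested, Col3a1 had geometric means of 6.81 in HY_high, 4.62 in HY_low and 2.14 in OT1. In HY_high against OT1 4 of the 6 had a log2 difference above 0 and 2 below. By limma 0 marker genes of these 6 cell types passed in any comparison, with or without the block. In HY_high against HY_low, HY_high against OT1 and HY_low against OT1 the shares over all probe sets were 0.0230%, 0.173% and 0.0230%. With the block they were 0.345%, 1.36% and 0.0920%. In that order 1, 2 and 0 dendritic cell markers had an unadjusted p under 0.05. So did 1, 0 and 2 macrophage, 0, 1 and 1 NK cell and 0, 1 and 0 fibroblast markers. Over all probe sets 2.96%, 4.08% and 2.65% did. The part of such cells in the levels of Cd8a and Cd4 was not tested.

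The genes most like each member were looked up by Pearson's r of log2 intensity over the 12 arrays, among 7718 tested probe sets with a single symbol. Arrays share groups and numbers, so r is a description. For Cd8b1 the highest were Cd52, a small lymphocyte surface glycoprotein (r = 0.814), Gm13205 (0.809), Drc1 (0.806), Pla2g12a (0.803) and E2f3, a cell cycle factor (0.801). Cd52 had geometric means of 227 in HY_high, 363 in HY_low and 330 in OT1, so that likeness of pattern did not go with likeness in size. Cd8a ranked 144th by this measure (r = 0.585), and Cd4 had r = 0.140 with Cd8b1. For Cd8a they were Nfatc2, a calcium-regulated factor (0.938), Edem1 (0.917), Proc (0.906), Metap1 (0.891) and Iars, an aminoacyl-tRNA synthetase (0.852). For Cd4 they were Hspa9, a mitochondrial chaperone (0.841), AU021092 (0.817), Rrm2, a subunit of ribonucleotide reductase (0.809), Igsf8 (0.791) and Psmg3 (0.783).

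With group means removed, so that the spread within groups remains, the lists were different. Those of Cd8b1 were Tmem185a (r = 0.967), Pomc (0.961), Ephb6 (0.927), Klhdc4 (0.893) and Cenpv (0.890). For Cd8a they were Nae1 (0.985), Copb1 (0.962), Gtpbp4 (0.950), Srsf2 (0.948) and Uqcrb (0.948), and for Cd4 Ssx2ip (0.916), Ly86 (0.889), Vps26a (0.883), Tmem222 (0.862) and St8sia5 (0.845). Within groups r was 0.251 between Cd8b1 and Cd8a, and 0.664 between Cd8a and Cd4. These coefficients rest on 4 numbers shared by the groups.

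**Figure D5:**
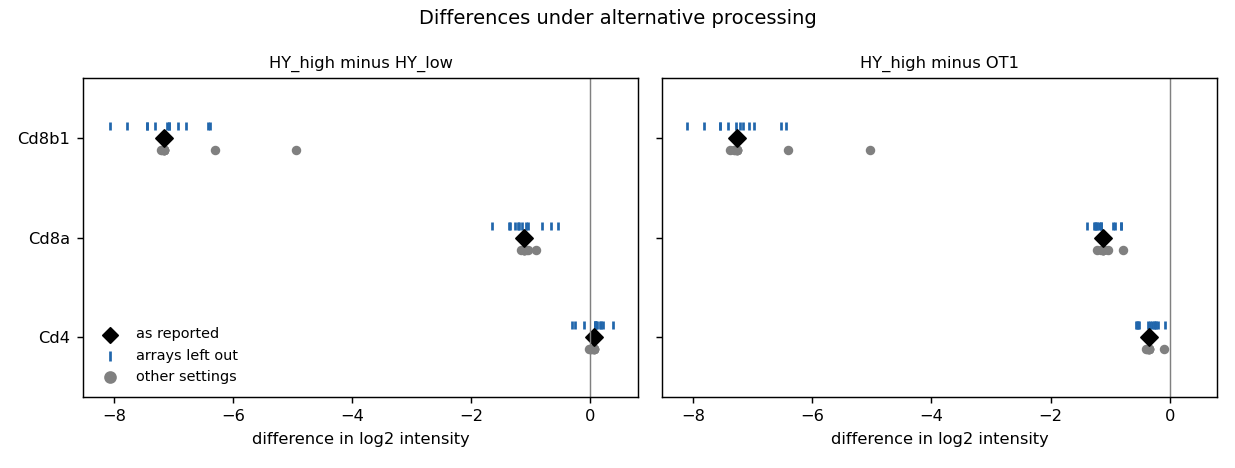
Differences in log2 intensity of Cd8b1, Cd8a and Cd4 as reported (diamonds), with arrays left out (blue ticks) and under the other processing settings (grey points), for HY_high minus HY_low and HY_high minus OT1. Cd8b1 stays at -4.94 or lower throughout, Cd8a ranges from -1.66 to -0.55, and Cd4 lies on both sides of 0 in HY_high minus HY_low.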

How the data were processed

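RNA from RTOC was measured on 12 Affymetrix mouse arrays. The authors deposited 1 table of intensities on a linear scale, and their background correction, summary and scaling are not given in the sources used here. No column was left unmapped. Control probe sets (66) were left out, values were put on a log2 scale, and 8695 probe sets with a mean above the 30th percentile (an intensity of 1.76) were tested. Of 12422 probe sets, 10833 match 1 symbol, 396 several and 1193 none, by the platform's annotation with symbols updated by gene ID.

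One limma fit (version 3.58.1, R 4.3.3) with a mean per group over all 12 arrays and a variance trend gave two-sided p-values, adjusted by Benjamini-Hochberg over all tested probe sets, threshold 0.05. It was tested on simulated data. A gene in a list stands by its probe set with the highest mean. The text names the 3 members, list genes past the threshold with or without the block (otherwise up to 4 with the smallest p), and the 5 probe sets most like each member. It also names further list genes and neighbours outside that rule. Members and lists were chosen with earlier results of these data known.

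Deviations from group means correlated between 0.341 and 0.593 in the 12 same-numbered pairs of arrays and between -0.40 and 0.163 in the 36 others. The numbers therefore pair the arrays, which the labels do not state, and limma was also run with that number as a blocking factor. Filters, a floor, a pseudocount, scaling, array weights and leaving out arrays were the alternatives.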

Additional observations from a re-analysis of the deposited data

Results flagged for a closer look

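Cd8b1 on HY_high array 2 had an intensity of 1, the lowest value of the scale, and stood apart from the other 3 HY_high arrays on the log2 scale, with a gap of 0.863 of the group's range, above Dixon's 95% critical value for 4 arrays. Without that array the log2 difference was -6.43 from HY_low and -6.53 from OT1. The array had 3.0% of its values at 1, the smallest share of the 12. In all 9 sets of 4 arrays were examined, and chance flags about 1 in 20.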

How the results depend on the processing

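The log2 difference of Cd8b1 kept its sign under all 22 alternatives in both HY_high comparisons and moved by more than 1 SD between replicates only with a pseudocount of 16, to -4.94 from HY_low and -5.04 from OT1, because that constant outweighs values near 1. Without 1 array it was -7.79 to -6.43 from HY_low and -7.81 to -6.53 from OT1, and without 1 number in every group, an alternative chosen after seeing the data, -8.07 to -6.39 and -8.10 to -6.44. Cd8a was -1.66 to -0.55 from HY_low and -1.27 to -0.82 from OT1 without 1 array, and Cd4 -0.32 to 0.38 and -0.56 to -0.19. In HY_low against OT1 no alternative made a member pass, the replicate block included (block adjusted p = 0.831 for Cd4, 0.974 for Cd8b1 and 0.9999 for Cd8a). There Cd8a turned positive with the pseudocount (0.016), with arrays scaled to one median (0.0094) and with array weights (0.14). It was -0.56 to 0.54 without 1 array and -0.27 to 0.41 without 1 number, Cd8b1 -0.66 to 0.53 without 1 array, and Cd4 -0.74 to 0.047 without 1 number. Values under 8 set to 8 left Cd4 below the filter, so it has no value there.

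Probe sets past the threshold in HY_high against HY_low were 2, and 30 with the replicate block, 7 with array weights, 6 with the pseudocount, 1 with the 50th percentile filter, 1 with scaling to one median and 0 in limma without a filter (431 at an unadjusted p under 0.05). Leaving out arrays gave 1 to 4, with 4 when HY_low array 1 was left out and 1 when any single one of HY_high arrays 1 to 4 or HY_low arrays 2 to 4 was, and leaving out numbers gave 1 to 2. In HY_high against OT1 they were 15, and 118 with the replicate block, 64 with array weights, 9 without a filter and 8 with only the 2 groups in the fit. Leaving out arrays gave 6 to 14, with 6 without OT1 array 2 or HY_high array 3, 7 without OT1 array 4 or HY_high array 2 and 9 without OT1 array 3 or HY_high array 4, and leaving out numbers gave 3 to 9. In HY_low against OT1 they were 2, and 8 with the replicate block and 4 with array weights. Leaving out arrays gave 2 to 3. The cause of these shifts was not tested. Values near the lowest of the scale limit Cd4 in all groups and Cd8b1 in HY_high.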
